A study of Mus musculus with 11 samples.

Results

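Transcript levels on the array labelled VA_475 were compared with those on the array labelled 3T3, gene by gene, as VA_475 minus 3T3. 3T3 is an established mouse fibroblast line, while the labels give VA_475 a code and no cell type. The comparison used 2 of the 11 arrays of the series, 1 array for each sample, and covered the 7077 of 7114 named genes that had a value on both. The series title asks about RAS isoforms in melanocytes, and VA_475 and 3T3 carry no RAS name in their labels. On every array the sample's own RNA, extracted with Trizol, was labelled with Cy3, and a mouse embryo reference RNA common to all arrays was labelled with Cy5. The dyes were incorporated directly during reverse transcription and were not swapped. Genotype, strain, age, treatment, passage and culture conditions are not in the labels of either sample. The other arrays are labelled HRAS_MEL, NRAS_MEL, D6_MEL, VA_MEF, Melan A, Heart, Kidney, Liver and Lung.

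Fibroblasts are the cells of connective tissue that make collagen and other extracellular matrix, and they pull on that matrix through actin and myosin fibres. They respond to platelet-derived growth factor, transforming growth factor beta and insulin-like growth factors. Established fibroblast lines grow without limit in culture, and they can differ from each other in matrix output, contractile genes and growth factor genes.

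A level below is the log2 ratio of a sample's own RNA to the reference, centred on the median of its array, and a difference is the VA_475 level minus the 3T3 level. The deposited table does not state which way its ratios run. Each sign was turned, because reference over own RNA is the likely direction. In the deposited values, the array farthest from the median of the 11 arrays lay below it for each of the 4 organ marker lists, by -8.36 (liver list), -7.40 (lung list), -4.55 (heart list) and -3.72 (kidney list). Read as ratios, the titles of the samples run the other way. If the table did too, higher would read lower throughout, and all signs given here would turn. Base 2 was assumed for the logarithm. With 1 array for each sample there is no replicate error, no test and no p-value, and a gene is called apart where the difference is at least 2-fold, which is 1 on the log2 scale. The closest thing to an error is the spread between probes of the same gene on the same arrays: over the 1797 genes with several probes, the SD of their differences had a median of 0.215 and a root mean square of 0.41. Such probes share the RNA, labelling and arrays, so this spread leaves out any error between cultures, labellings or arrays.

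Some arrays went against their labels, so the 9 other arrays serve below only as a range. The 3 measured liver genes were farthest from the other arrays on the array labelled Lung, the 2 heart genes on the array labelled Melan A, and the 2 lung genes on the array labelled Liver, while the 5 kidney genes were farthest on Kidney. The heart genes had a median level of -0.96 on the array labelled Heart, against 3.77 on the array labelled Melan A. No difference between VA_475 and 3T3 uses those arrays. Hbb-b1, a haemoglobin chain, stood at -7.97 on VA_475 and -8.05 on 3T3, and Alb, serum albumin, at -7.66 and -8.22. The median difference of the 3 liver genes was -0.19, but it ran from -0.28 to 1.16 over the alternatives and so has no settled direction. Values were present for 15170 probes on VA_475 and 15210 on 3T3.

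Of the 18 measured genes of the 32 written as fibroblast markers, the median level on 3T3 was 0.03, the highest of the 11 arrays. VA_475 came second with a median of -0.70, and the other 9 ran from -1.67 to -0.74. HRAS_MEL (-0.74) and D6_MEL (-0.78) were close behind VA_475, while VA_MEF was at -1.66. The second rank of VA_475 therefore hardly separates it from those MEL arrays. The reference is whole embryo RNA, itself rich in connective tissue, so a level near 0 is no low amount. Markers of other cell types were looked at in the same way. The 6 measured melanocyte markers had a median difference of -0.01, with 0 at least 2-fold apart, but the defining pigment genes Tyr, Dct, Tyrp1, Pmel and Mitf were not among them. The median differences were -0.25 for 14 epithelial, -0.09 for 5 endothelial and 0.29 for 4 leukocyte genes, and among these 3 lists Krt19 (-2.10), a keratin, and Lyz2 (-1.36), lysozyme, were at least 2-fold apart. The melanocyte, epithelial and endothelial medians changed sign under some of the alternatives. Neural and glial markers had a median of -0.77 over 5 genes, with Mbp (1.01), a myelin protein, higher and Nes (-3.03) and Gap43 (-1.32), a growth cone protein, lower. The 3 adipocyte markers had a median of 0.52, with Lpl (1.01), lipoprotein lipase, higher. Muscle and contractile genes, described further on, had a median of -0.85 over 16 genes. A log ratio has no zero, so these lists cannot show that a cell type was absent, and their part in the differences below was not tested. As RNA came from whole samples, fewer cells of a type and less RNA per cell cannot be told apart.

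The levels of VA_475 and 3T3 had a Pearson r of 0.801 and a Spearman rank correlation of 0.718 across the 7077 genes, as a description, since genes are not replicates and both arrays share the reference. The correlation of VA_475 with the other arrays was 0.708 with NRAS_MEL, 0.658 with HRAS_MEL, 0.631 with VA_MEF and 0.626 with D6_MEL. It was 0.587 with the array labelled Heart and between 0.184 and 0.242 with the arrays labelled Lung, Kidney, Melan A and Liver. 3T3 in turn had an r of 0.732 with NRAS_MEL, 0.701 with HRAS_MEL, 0.695 with D6_MEL and 0.655 with VA_MEF. VA_475 was therefore nearer to 3T3 than to any other array.

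Of the 7077 genes, 510 (7.21%) were at least 2-fold apart, 224 (3.17%) higher in VA_475 and 286 (4.04%) lower. The shares of 3.17% and 4.04% are the background for the counts of each gene list. At 4-fold the counts were 32 higher and 43 lower, and at 8-fold 4 and 9. The differences of all genes had a median of 0.01, an SD of 0.57 and quartiles of -0.28 and 0.29, and 50.8% lay above 0. When the arrays were scaled to a common spread, 279 genes were higher and 252 lower, so which side held more genes depended on the scaling. Of the 510 genes, 419 rested on 1 probe. In 46 of the 91 with several probes, every probe was at least 2-fold apart in the same direction, 13 higher and 33 lower. The genes nearest to the threshold were Cdk5rap2 and Csgalnact1 just inside and Sqle and Setdb1 just outside among the higher genes, all 2-fold apart after rounding. Among the lower genes Ppfibp2 and Arhgap20 lay just inside and Mcm10 and Kcnmb1 just outside.

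**Figure D1:**
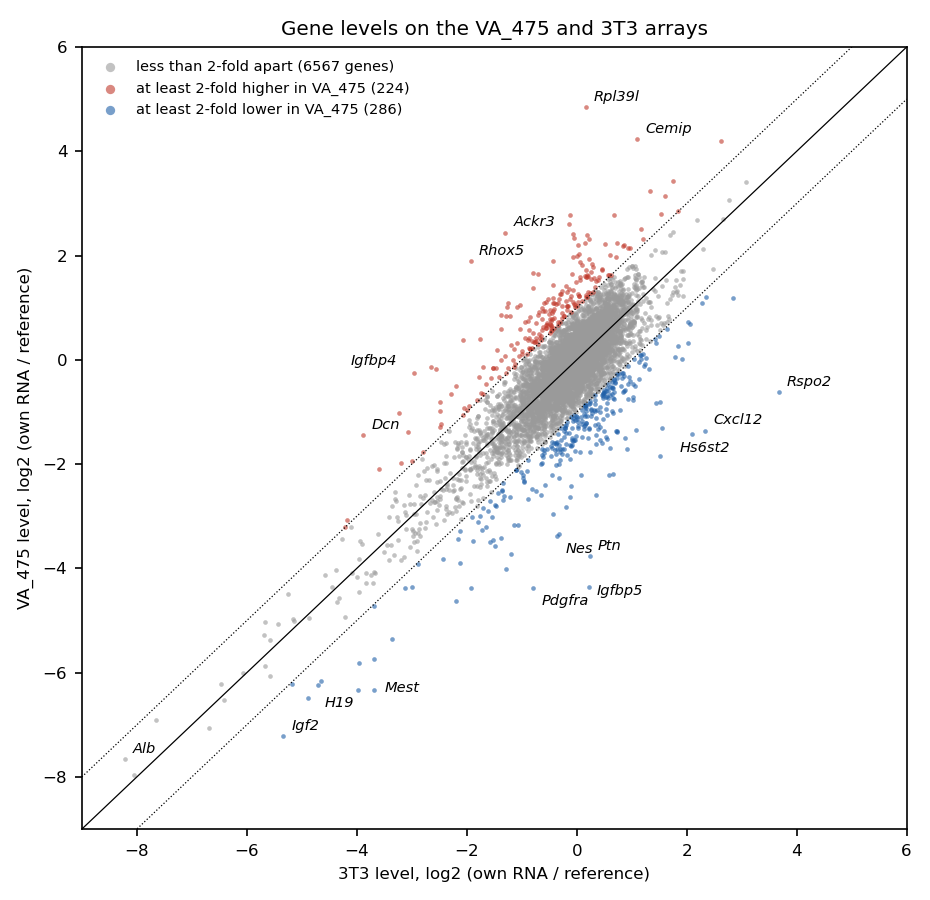
Level of each of the 7077 genes on 3T3 (horizontal axis) and VA_475 (vertical axis), as log2 of own RNA over reference, 1 array each. The solid line marks equal levels and the dotted lines 2-fold; the 224 genes higher in VA_475 are red and the 286 lower are blue, with Rpl39l and Igfbp5 at the ends.

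The other arrays show which of the 2 arrays stood apart. Among the 224 higher genes, VA_475 lay above all 10 other arrays in 108 (48.2%, against 10.6% of all genes), and 3T3 lay below all 10 in 39 (17.4%, against 5.79%). Among the 286 lower genes, VA_475 lay below all 10 in 128 (44.8%, against 10.5%), and 3T3 above all 10 in 61 (21.3%, against 5.36%). Both held in 6 higher and 9 lower genes, and neither in 83 and 106. A gene that is 2-fold apart is by that fact more likely to be at an end of the range, so these shares describe the genes and test nothing. The deposited values also spread more widely on VA_475 (SD 0.97) than on 3T3 (SD 0.84). The part of that spread in these shares was not tested.

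The 2 highest differences were those of Rpl39l and Rhox5. Rpl39l, a retrogene copy of the ribosomal protein gene Rpl39 that is mainly read in the testis, stood at 4.85 on VA_475 and 0.16 on 3T3, a difference of 4.69, or 25.7-fold. Its levels on the 8 other arrays with a value had a low of -0.15, a median of 0.08 and a high of 0.42. Among these arrays VA_475 alone was high. Rpl39 itself differed by 0.19, from 0.43 on VA_475 to 0.25 on 3T3, though RNA of such a near-identical copy can bind the probe of the other. Rhox5, a homeobox gene of the reproductive X-linked cluster, stood at 1.89 on VA_475 and -1.93 on 3T3, 14.1-fold apart. The other arrays ran from -2.71 to -0.42 for Rhox5, with a median of -1.99, again leaving VA_475 alone above them. Oosp2, an oocyte secreted protein, differed by 2.35, but there 3T3 was low at -1.26 and VA_475, at 1.09, lay inside the range of the others (-0.52 to 2.20).

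Cxcl12 and its receptor Ackr3 stood at opposite ends. Cxcl12, a chemokine that stromal cells secrete, was at -1.36 on VA_475 and 2.33 on 3T3, 12.9-fold lower in VA_475. The other arrays ran from -2.02 to 2.44, with a median of 0.65, so VA_475 lay near their low end and 3T3 near their high end. Ackr3, which binds and removes CXCL12, was at 2.44 on VA_475 and -1.30 on 3T3, 13.3-fold higher in VA_475. Its levels elsewhere ran from -2.18 to 1.63, with a median of -0.56. Ppbp, another chemokine gene, differed by -3.36, from -1.85 on VA_475 to 1.51 on 3T3, and 3T3 was the array that stood apart (others -2.99 to -0.36). Ackr3 and Ppbp are not in the list of cytokines, chemokines and inflammation genes. That list had 3 of 16 measured genes higher and 2 lower, with a median of -0.22. Its higher members were Pla2g7 (1.57), an enzyme that breaks down platelet-activating factor, Ptges (1.42), prostaglandin E synthase, and C1ra (1.04), a complement protease. Il6st, the shared receptor chain of the interleukin 6 family, was lower on both of its probes, at -1.89 and -1.45.

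**Figure D2:**
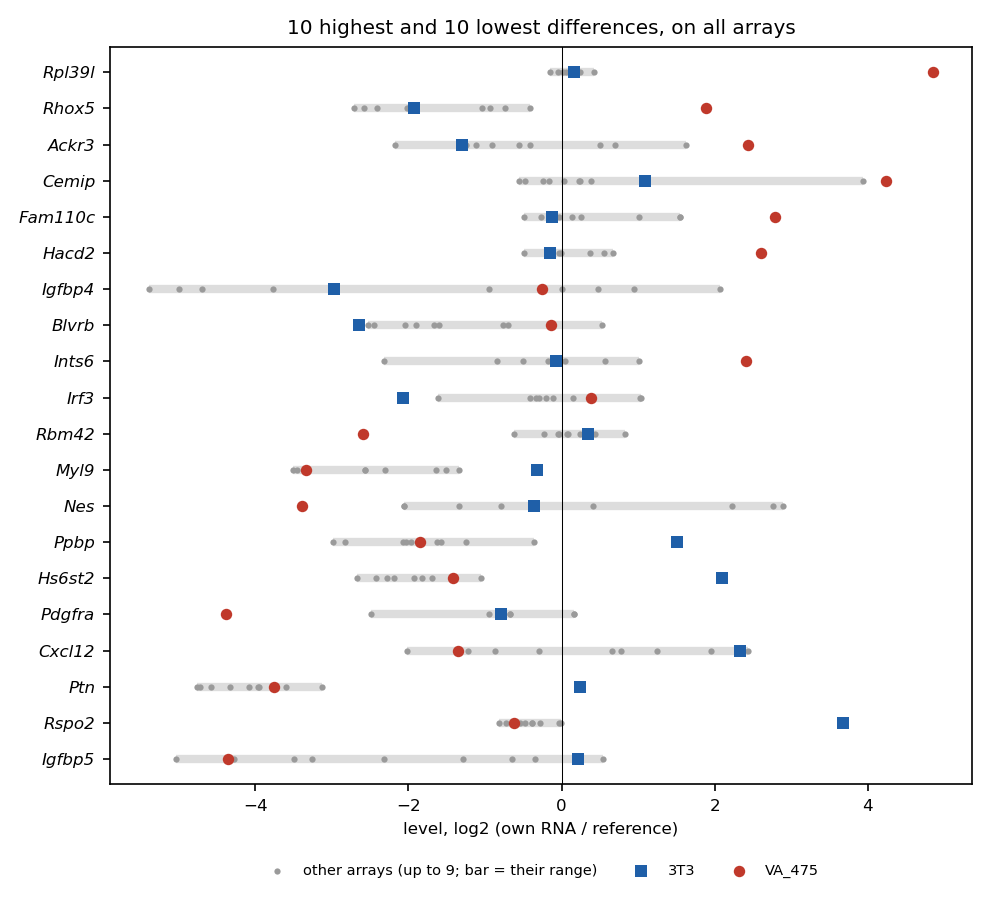
Levels (log2 of own RNA over reference, horizontal axis) of the 10 genes with the highest and the 10 with the lowest difference, on VA_475 (red circles), 3T3 (blue squares) and up to 9 other arrays (grey dots, the bar being their range). VA_475 lies outside the grey range for Rpl39l (4.85) and Pdgfra (-4.38), and 3T3 does so for Rspo2 (3.67) and Hs6st2 (2.10).

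Igfbp5, Ptn and Pdgfra, all of the growth factor list, were among the 20 lowest differences. The list of the IGF, FGF, PDGF and VEGF systems had 2 of 22 measured genes higher and 6 lower, with a median of -0.43, against 3.17%, 4.04% and 0.01 over all genes. Igfbp5, which binds insulin-like growth factors, stood at -4.35 on VA_475 and 0.22 on 3T3, 23.7-fold lower in VA_475 and the lowest difference of all genes. The other arrays covered -5.04 to 0.54 for Igfbp5, with a median of -2.33, so each of the 2 lay close to an end of that range. Igfbp4, another binding protein of the same family, went the other way, at -0.25 on VA_475 and -2.97 on 3T3, 6.57-fold higher in VA_475. Its range elsewhere was -5.39 to 2.07, and both arrays lay within it. Igf2, the fetal growth factor itself, was low on both arrays, at -7.21 and -5.34, with probe differences of -1.95 and -1.79.

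Ptn, pleiotrophin, a heparin-binding growth factor, stood at -3.76 on VA_475 and 0.24 on 3T3, 16.0-fold apart. The other arrays lay between -4.76 and -3.13, so 3T3 alone was high. Pdgfra, a receptor of platelet-derived growth factor that marks fibroblasts, stood at -4.38 on VA_475 and -0.79 on 3T3, 12.1-fold apart. Here VA_475 alone was low, below the -2.49 to 0.16 of the 6 other arrays with a value. The sister receptor Pdgfrb differed by -1.56, from -0.50 to 1.06, and Pdgfc, a ligand of Pdgfra, by 1.12, from 2.33 on VA_475 to 1.21 on 3T3. Fgfr1, a fibroblast growth factor receptor, differed by -1.45.

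Rspo2, which strengthens Wnt signals, stood at -0.62 on VA_475 and 3.67 on 3T3, 19.5-fold lower in VA_475. The other 9 arrays lay between -0.82 and -0.01, so VA_475 was like them and 3T3 was not. Of the 13 measured genes of the Wnt pathway list, which does not hold Rspo2, 1 was higher and 1 lower, with a median of -0.17. The higher gene was Dkk1 (1.18), a secreted Wnt inhibitor, at 0.69 on VA_475 and -0.49 on 3T3, and the lower was Wnt2 (-1.20). Ctnnb1, which encodes beta-catenin, stood at -2.09 on VA_475 and -1.09 on 3T3, just short of 2-fold. Hs6st2, which adds sulfate to heparan sulfate chains, stood at -1.42 on VA_475 and 2.10 on 3T3, with probe differences of -3.75 and -3.29. It was the gene with the lowest difference among those whose probes all passed 2-fold, and 3T3 lay above the others (-2.67 to -1.05).

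In the TGF-beta and BMP list, 0 of 24 measured genes were higher and 6 lower, with a median of -0.35. The ligands Tgfb2 and Bmp4 differed by -2.02 and -1.44, from -3.16 to -1.15 and from -1.46 to -0.02. Tgfbr2, the type II receptor, differed by -1.29, and Skil, a repressor of SMAD transcription factors, by -1.47. On VA_475 Skil stood at -1.77, below the -0.50 to 1.21 of the other arrays. Bmp1, a protease that trims procollagens, and Fstl1, follistatin-like 1, differed by -1.37 and -1.05.

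Collagen genes were mostly lower in VA_475. Of 19 measured collagens and collagen-modifying enzymes, 0 were at least 2-fold higher and 6 lower, 17 lay below 0, and the median was -0.74. Col5a2, a chain of the fibril-forming type V collagen, was at -0.77 on VA_475 and 1.03 on 3T3. Col3a1 was at -3.47 and -1.88, with 4 probe differences from -2.33 to -0.07, so its size depends on the probe. Col1a2, a chain of type I collagen, was at -1.58 on VA_475 and -0.36 on 3T3, with probe differences of -1.25 and -1.19, while its partner chain Col1a1 differed by -0.83. Only 2 of the 19 genes lay above 0, and neither reached 2-fold. Serpinh1, the collagen chaperone, differed by -1.46 and P4ha2, a prolyl hydroxylase subunit, by -1.33, while Plod3, a lysyl hydroxylase, differed by 0.84. 3T3 was the highest of the 11 arrays for 4 of the 19 genes and VA_475 for 1, against 5.36% and 10.6% of all genes.

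**Figure D3:**
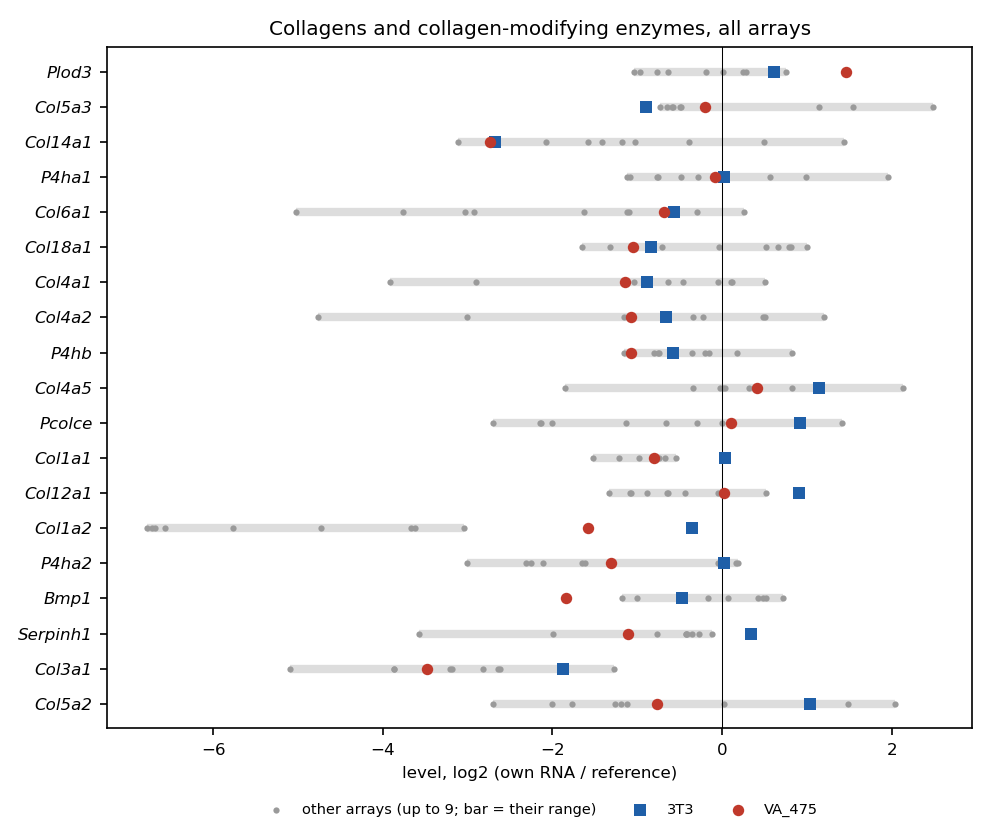
Levels (log2 of own RNA over reference, horizontal axis) of the 19 measured collagens and collagen-modifying enzymes on VA_475 (red circles), 3T3 (blue squares) and the other arrays (grey dots, the bar being their range), ordered by the difference from Plod3 (0.84) down to Col5a2 (-1.80). VA_475 lies left of 3T3 in 17 of 19 genes, and for Col1a2 both lie right of the grey range.

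Other matrix genes were split, with 3 of 30 measured genes higher, 5 lower and a median of -0.30. Dcn, decorin, a small proteoglycan that coats collagen fibrils, was the only one of the 18 fibroblast markers above 0. It stood at -1.45 on VA_475 and -3.88 on 3T3, with probe differences of 1.78 and 3.07. Spon2, a matrix protein of the spondin family, was at 2.33 on VA_475 and -0.04 on 3T3, and Tnc, tenascin C, at 1.33 and -0.26. Outside the list, Cemip, which takes part in the breakdown of hyaluronan, differed by 3.14, from 4.24 on VA_475 to 1.10 on 3T3. VA_475 was the highest array for Cemip, but 1 other array reached 3.93. On the lower side were the basement membrane proteins Nid2 (-2.51) and Nid1 (-1.53), the large proteoglycan Vcan (-1.37), Prelp (-1.19) and Emilin1 (-1.01). Vcan was at 0.69 on VA_475 and 2.06 on 3T3, and 3T3 lay above the 8 other arrays with a value, which reached 0.83.

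Among matrix proteases and their inhibitors, 2 of 17 genes were higher and 3 lower, with a median of -0.30. Timp3, an inhibitor of metalloproteinases, was at -0.81 on VA_475 and 1.51 on 3T3, with nearly equal probe differences of -2.33 and -2.31. Mmp9, gelatinase B, was at 0.21 on VA_475 and -1.14 on 3T3, and Ctsl, the lysosomal protease cathepsin L, differed by 1.67 with probe differences of 1.60 and 1.74. Adhesion receptors had 4 of 21 genes higher and 1 lower, with a median of -0.08. The higher genes were the integrin chains Itgb7 (1.64), Itga2b (1.45) and Itgb4 (1.02) and the tetraspanin Cd9 (1.17). The lower gene was Cdh3, P-cadherin, at -1.37 on VA_475 and 0.73 on 3T3, above all others on 3T3.

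Both arrays together stood apart from the other 9 in a few genes, picked after their values were seen. Of 7035 genes that could be compared, both arrays lay at least 2-fold above every other array in 4 and at least 2-fold below in 3. Tnc, a matrix protein of growing and healing tissue, stood at 1.33 on VA_475 and -0.26 on 3T3 against -4.82 to -1.94 elsewhere. Col1a2 stood at -1.58 and -0.36 against -6.79 to -3.05. Ddx39a, an RNA helicase, at 0.90 and 1.01, and Clmp, an adhesion molecule, at 0.23 and 0.08, were the other two above. The genes below were Prxl2a, at -2.54 and -2.59, Nceh1, a cholesteryl ester hydrolase, at -0.21 and -0.97, and Eml2, a microtubule-associated protein, at -1.78 and -1.02. Without the 2-fold condition the counts were 284 above and 271 below.

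**Figure D4:**
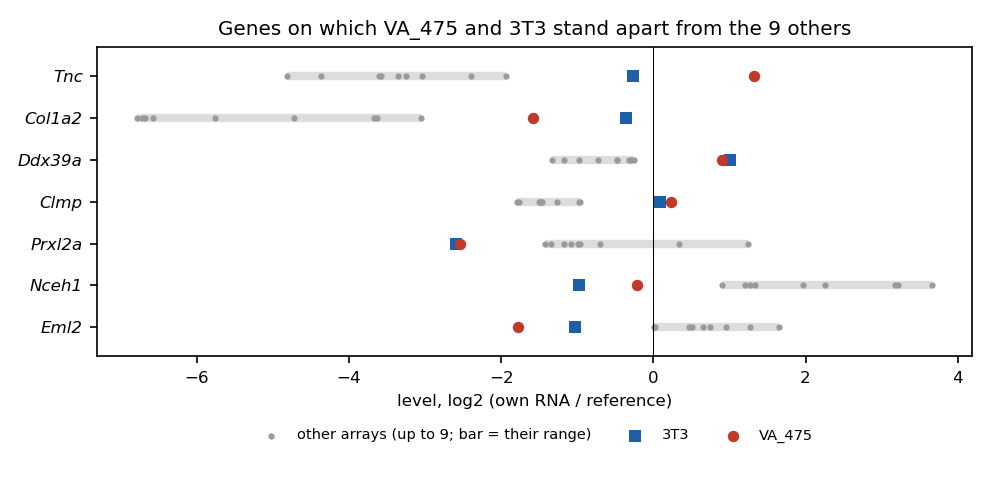
Levels (log2 of own RNA over reference, horizontal axis) of the 7 genes on which VA_475 (red circles) and 3T3 (blue squares) both lie at least 2-fold outside the range of the other arrays (grey dots and bar). Tnc, Col1a2, Ddx39a and Clmp lie to the right of that range, and Prxl2a, Nceh1 and Eml2 to the left.

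Contractile genes had the lowest median of the 42 lists. Of 16 measured muscle and contractile genes, 0 were higher and 6 lower, 13 lay below 0, and the median was -0.85. 3T3 was the highest of the 11 arrays for 7 of the 16 and VA_475 for 0, against 5.36% and 10.6% of all genes. Myl9, a regulatory light chain of non-muscle and smooth muscle myosin, stood at -3.34 on VA_475 and -0.33 on 3T3, 8.06-fold apart. The other arrays lay between -3.50 and -1.34, so 3T3 was the one apart. Myh9, a non-muscle myosin heavy chain, was at -0.18 and 1.32. The actin-binding tropomyosins Tpm2 and Tpm1 differed by -1.79 and -1.55, with probe differences of -1.82 and -1.76 for Tpm2 and of -2.54 and -0.57 for Tpm1. Csrp1, a LIM domain protein, and Cnn2, a calponin, differed by -1.97 and -1.71. Probes for myosin, tropomyosin and actin genes can pick up closely related copies, so single family members are uncertain.

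Other genes of the cell skeleton were lower in VA_475 as well. Tmsb4x, thymosin beta 4, which holds actin monomers, stood at -2.82 on VA_475 and -0.20 on 3T3, although the other arrays spread from -6.33 to 2.67. Marcks, a membrane protein that binds actin, was at -1.76 and -0.03, and the smallest of its 3 probe differences was -1.29. Nes, the intermediate filament protein nestin, stood at -3.39 on VA_475 and -0.36 on 3T3. It was lowest on VA_475 of all arrays, which otherwise went from -2.06 to 2.89. The annexins Anxa6 (-1.55), Anxa5 (-1.38), Anxa2 (-1.06) and Anxa1 (-1.02), which bind membranes in the presence of calcium, were lower too. So were Cfl1 (-1.20), cofilin, Actg1 (-1.07), gamma actin, Actn4 (-1.03), an actinin, and Arpc2 (-1.04), a subunit of the complex that branches actin filaments. For Actn4 and Arpc2, VA_475 lay below all 10 other arrays.

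Imprinted and fetal growth genes had 3 of 16 measured genes higher and 6 lower, with a median of -0.77. Mest, read from the paternal copy, stood at -6.33 on VA_475 and -3.69 on 3T3, below the -5.69 to 1.79 of the other arrays on VA_475. Sgce, another paternally read gene, stood at -2.95 and -0.42, again lowest on VA_475 (others -2.31 to 1.78). H19, a maternally read non-coding RNA next to Igf2, was at -6.34 on VA_475 and -3.98 on 3T3. Its 7 probes gave differences from -3.64 to -1.04, all in the same direction. Peg10 differed by -1.14 and Cdkn1c, an inhibitor of the cell cycle, by -1.04, but Cdkn1c changed sign with the scaling, to 0.27 when the arrays were brought to a common spread. Dlk1 (1.51), a Notch-like ligand, and Plagl1 (1.11), a zinc finger factor, were higher with Dcn. The median level of the list was -1.59 on VA_475 and -1.40 on 3T3, so much of it compares levels well below the embryo reference.

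Developmental transcription factors had 0 of 22 measured genes higher and 5 lower, with 19 below 0 and a median of -0.32. The lower genes were Sox11 (-1.50), Gli2 (-1.32), a factor of the hedgehog pathway, Irx3 (-1.24), Gata6 (-1.23) and Alx1 (-1.14). Alx1, a homeobox gene of the embryonic face, stood at -0.67 on VA_475 and 0.47 on 3T3, just under the lowest other array, at -0.61.

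**Figure D5:**
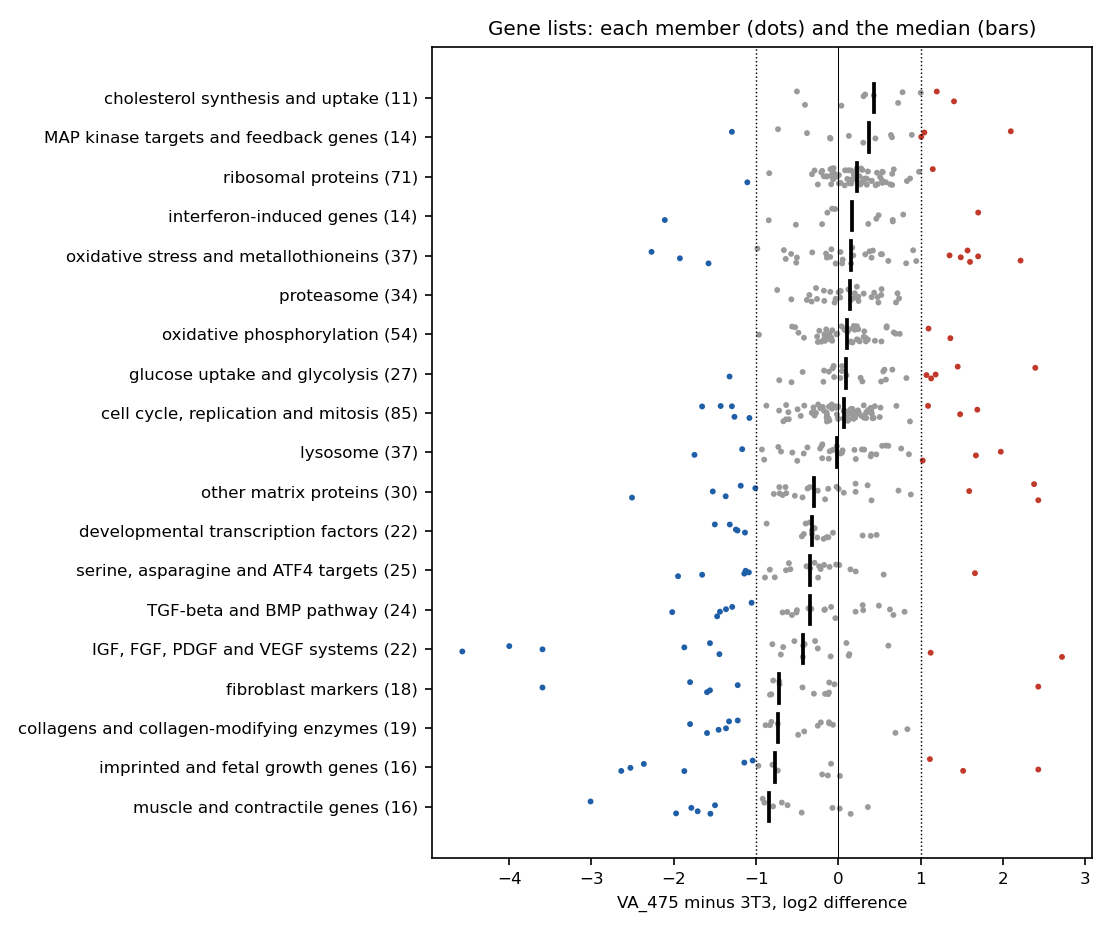
Difference VA_475 minus 3T3 (log2, horizontal axis) of each measured gene (dots) in 19 gene lists, with the list's median as a black bar and the number of genes in brackets. Dots at least 2-fold higher are red and at least 2-fold lower blue; the medians run from -0.85 for muscle and contractile genes to 0.43 for cholesterol synthesis and uptake.

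Of 85 measured genes of the cell cycle, replication and mitosis, 3 were higher and 5 lower, with a median of 0.06 that lay between -0.08 and 0.11 over the alternatives. VA_475 and 3T3 had the highest list medians of the 11 arrays, at 0.34 and 0.29, while the other arrays ran from -1.34 to 0.13. Mki67, a marker of cycling cells, was at -1.83 on VA_475 and -0.17 on 3T3, and the kinase gene Cdk2 at -1.70 and -0.27. The D-type cyclins Ccnd1 and Ccnd2 differed by -1.29 and -1.08, and the 5 probes of Ccnd2 lay between -1.34 and -0.76. Nusap1 (1.69), Pttg1 (1.48) and Mad2l1 (1.09), which act at the mitotic spindle and in chromosome separation, were higher, and the 3 Pttg1 probes lay between 1.42 and 1.55. Among cell cycle inhibitors, p53 targets and apoptosis genes, 4 of 24 were higher and 2 lower. Cdkn2c, an inhibitor of the kinases that partner with D-type cyclins, stood at 2.40 on VA_475 and 0.19 on 3T3, above the -0.92 to 1.22 of the other arrays.

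The list of MAP kinase targets and feedback genes had 3 of 14 measured genes higher and 1 lower, with a median of 0.38 that ranged from 0.05 to 0.54 over the alternatives. VA_475 had the highest list median of the arrays, at 0.97, against 0.63 on 3T3 and -0.41 to 0.82 elsewhere. Ier3, an immediate early gene, stood at 2.77 on VA_475 and 0.68 on 3T3, within the -1.98 to 3.15 of the others. The AP-1 members Fosl1 and Fosl2 were at 2.85 and 1.63 on VA_475 and at 1.84 and 0.58 on 3T3, and for both VA_475 was the highest array. Ccnd1 was the lower gene of this list. Rgs2, which ends G protein signals, is not on the list. It averaged a difference of 2.28, but its 3 probes ran from -0.02 to 3.72, so this gene cannot be relied on.

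Metallothionein and stress enzyme genes were called in both directions. Among 37 measured genes of oxidative stress, glutathione and metallothioneins, 6 were higher and 3 lower, with a median of 0.15. Metallothioneins are small proteins that bind zinc and copper, and metals raise their transcription through short metal response motifs. Mt2 stood at -1.03 on VA_475 and -3.24 on 3T3, a difference of 2.21, and Mt1 at -1.38 and -3.07, a difference of 1.70. The other arrays ran from -3.62 to 1.93 for Mt2 and from -1.93 to 0.76 for Mt1, so 3T3 was below them all for Mt1 only. The 2 genes are neighbours and close copies, measured by 1 probe each, so their probes may not be independent.

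Their promoters are shown because the 2 neighbours differ in the same direction. RefSeq windows on assembly GRCm38.p6, which begin 6471 bases apart, give the 250 bases before each start on the plus strand, at chr8:94178839-94179088 for Mt1 and chr8:94172368-94172617 for Mt2. Capitals mark matches to TGCACNC or TGCGCNC, the core of the metal response motif, on either strand.
Mt1: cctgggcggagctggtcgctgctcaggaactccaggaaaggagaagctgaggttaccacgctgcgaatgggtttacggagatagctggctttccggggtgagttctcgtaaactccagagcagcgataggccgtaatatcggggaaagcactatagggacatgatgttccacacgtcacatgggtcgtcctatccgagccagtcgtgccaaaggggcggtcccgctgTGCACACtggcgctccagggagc
Mt2: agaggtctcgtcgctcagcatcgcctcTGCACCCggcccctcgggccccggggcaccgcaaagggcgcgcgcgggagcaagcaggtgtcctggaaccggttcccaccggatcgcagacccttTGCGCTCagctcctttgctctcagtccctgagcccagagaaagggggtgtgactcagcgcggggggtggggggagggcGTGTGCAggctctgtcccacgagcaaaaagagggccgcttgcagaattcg
The Mt1 stretch holds 1 match and the Mt2 stretch 3. With the 50 bases after the start, which are not shown, Mt1 has 3 matches and Mt2 has 4. In the windows from 250 bases before to 50 after the start, 28.2% of 27025 genes hold a match, 8 of 32 genes of the stress list, 10 of 16 of the 20 highest genes that have a window and 7 of 17 of the 20 lowest. This motif was added with results known, the letters are short, and a match is a description and no sign that a factor binds.

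The other higher genes of that list were Aldh1a1 (1.60), a retinaldehyde dehydrogenase, Cbr3 (1.57), a carbonyl reductase, and the glutathione transferases Gsto1 (1.49) and Gstm5 (1.35). For each of these 4, VA_475 was the highest array, though only 5 other arrays had a value for Aldh1a1 and 8 for Gstm5. The lower genes were Cyp1b1 (-2.27), a cytochrome P450, Gpx1 (-1.93), glutathione peroxidase, and Ephx1 (-1.58), an epoxide hydrolase. Gpx1 stood at -3.46 on VA_475, below the -2.24 to 3.02 of the others, and Cyp1b1 at 1.44 on 3T3, above the -1.13 to 0.54 of the others. Each end of the list therefore held genes in which 1 of the 2 arrays stood alone. TGACNNNGC, the core of the antioxidant response motif, lay in the windows of 7 of 32 genes of the list and 14.0% of all genes. Blvrb, biliverdin reductase B, and Xdh, xanthine dehydrogenase, were among the 20 highest genes, at differences of 2.50 and 2.46. Ptgr1, a reductase of prostaglandins and aldehydes, was at 2.03 on VA_475 and 0.03 on 3T3, with probe differences of 1.70 and 2.30.

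Of 14 measured interferon-induced genes, 1 was higher and 1 lower, against 3.17% and 4.04% of all genes, and the median was 0.16. Interferons raise these genes through factors that include STAT2, IRF9 and members of the IRF family. Irf3, a sensor-activated factor of this family, is not on the list. It stood at 0.39 on VA_475 and -2.08 on 3T3, 5.53-fold higher in VA_475. For Irf3, 3T3 lay below the -1.61 to 1.03 of the others. Irf9 went the other way, at -3.17 on VA_475 and -1.07 on 3T3, with VA_475 below the -1.69 to 0.97 of the others. Isg20, an interferon-induced nuclease, differed by 1.70. The interferon response motif, a pair of GAAA blocks with any 2 bases between them, searched on both strands, lay in the windows of 8 of 13 genes of the list and 3.99% of all genes, and those 8 genes had differences from -0.85 (Oas1a) to 0.79 (Stat2). The matches of these 2 genes are shown in capitals to set the motif beside the opposite small differences, at chr5:120907526-120907555 on the minus strand for Oas1a, an antiviral synthetase, and chr10:128270266-128270295 on the plus strand for Stat2.
Oas1a: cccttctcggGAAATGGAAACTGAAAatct
Stat2: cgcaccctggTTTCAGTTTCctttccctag
The Oas1a stretch holds 2 overlapping matches and the Stat2 stretch 1, on the opposite strand. In antigen presentation by MHC class I, 0 of 7 genes were higher and 1 lower, Psme1 (-1.11), with B2m, beta-2 microglobulin, at 0.70.

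Cholesterol genes had the highest median of the lists drawn, 0.43, with 2 of 11 measured genes higher, 0 lower and 9 above 0. Mvd and Lss, enzymes of the pathway, were at 2.01 and 1.60 on VA_475 and at 0.61 and 0.40 on 3T3, and Sqle, squalene epoxidase, at 1.27 and 0.27. Fdft1, squalene synthase, differed by -0.41, so the pathway was not uniform. Glucose uptake and glycolysis genes had 5 of 27 measured genes higher and 1 lower, with a median of 0.10. Ldhb, a lactate dehydrogenase subunit, was at -0.17 on VA_475 and -2.56 on 3T3, within the -3.52 to 4.71 of the others. Bnip3 (1.45), Aldoa (1.18), the lactate carrier Slc16a1 (1.13) and Pdk1 (1.07) were higher, and Pfkl (-1.32), a phosphofructokinase, was lower. Slc16a13, a relative of Slc16a1 outside that list, differed by 2.33, with probe differences of 1.85 and 2.81.

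Genes of serine and asparagine synthesis and targets of ATF4, the factor that answers amino acid shortage, had 1 of 25 measured genes higher and 5 lower, with 20 below 0 and a median of -0.34. Trib3, a pseudokinase, was at 1.18 on VA_475 and 2.83 on 3T3, and Vldlr, a lipoprotein receptor, at -2.27 and -0.32. The tRNA synthetases Nars (-1.14) and Iars (-1.09) and the amino acid carrier chain Slc3a2 (-1.13) were lower, and the glutamine carrier Slc1a5 (1.66) was higher. Ribosomal protein genes had 1 of 71 measured genes higher and 1 lower, with 52 above 0 and a median of 0.22. VA_475 was the highest array for 22 of the 71 and 3T3 for 3, against 10.6% and 5.36% of all genes. Rps24 was the higher one (1.15, probes 1.12 and 1.17), and the lower one, Rpl17 (-1.11), rests on probes at -2.20 and -0.01. Ribosomal protein genes have many near-identical copies, so their single values are uncertain.

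Several more genes had the widest gaps between 1 of the 2 arrays and all others. Hacd2, an enzyme of long fatty acid chains, stood at 2.61 on VA_475 and -0.15 on 3T3. The 7 other arrays with a value reached 0.68. Hnrnpa0, an RNA-binding protein, stood at 2.32 and 0.22, and the others did not pass -0.15. Asb3 and Igsf10 were higher by 2.10 and 2.13, both with VA_475 above all other arrays. Rbm42, another RNA-binding protein, was at -2.59 on VA_475 and 0.35 on 3T3, and the others lay between -0.62 and 0.82. Npepl1, an aminopeptidase-like protein, stood at -4.01 and -1.28, and the others went no lower than -0.75. Tmem176a (-2.53), the repressor E2f6 (-2.04), Tpt1 (-1.83) and Itfg1 (-1.67) were also lowest on VA_475. On 3T3, Rmi1, a partner of the BLM helicase, stood at 1.92 against 0.02 on VA_475 and at most 0.17 elsewhere. Each of these genes rests on 1 probe, so nothing on the arrays checks the size of its difference.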

How the data were processed

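The value table deposited by the authors holds 15247 probes as log ratios, taken as log2, per the series' value table. No base, background correction or normalization step is given in the sources used here. Deposited column medians lay between -0.03 and 0.03. Spot intensities were not used, so the signal behind a ratio is unknown. Each sign was turned, each array's median was set to 0, and probes with a value on both arrays were averaged by gene with Python 3.11.15, numpy 2.4.6 and pandas 2.3.3. The platform annotation gave 9600 probes 1 symbol, 214 several and none to 5433. RefSeq (GRCm38.p6) matched 9492 by gene number and changed 0 symbols, and 5719 of the 7077 genes matched a RefSeq promoter window.

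Members, lists and thresholds were chosen with earlier results of these data known. A rule picked genes to name: the 20 highest and 20 lowest differences, and the 4 largest and all 2-fold genes of each described list. It also picked the 8 with the largest gap of 1 array from all others. Further picks were the 5 highest and lowest with several probes all 2-fold apart, and the 2 nearest to 2-fold on each side. Not all genes picked by the rule are described, among them Fam110c (2.90) and Glipr2 (-2.87). Hbb-b1, Rpl39, Col1a1, Plod3, Fdft1 and the genes on which both arrays stood apart were named outside the rule, after their values were seen. Some genes of the cell skeleton were named through a gene list that is not reported here. The steps were tested on simulated data with 200 planted genes. Scaling, centring, probe averaging and the logarithm's base were varied.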

Additional observations from a re-analysis of the deposited data

How the results depend on the processing

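No paired analysis was possible because each sample had 1 array. With other scaling, centring or probe rules, 504 to 579 genes were at least 2-fold apart, and r ran from 0.776 to 0.801. Read as natural logarithms, the table gave 1070 genes apart, 495 higher and 575 lower, since every difference is then larger. Common-spread scaling gave 279 higher and 252 lower genes. The median of the liver markers moved from -0.19 to 0.52 with quantile normalization and to 1.16 with common-spread scaling, which also moved the epithelial median to 0.26 and the leukocyte median to 0.72. These lists are far from 0 on both arrays, where a change of scale moves a difference most. Cdkn1c turned from -1.04 to 0.27 with common-spread scaling and Rgs2 from 2.28 to -0.015 with its first probe alone. Among 1678 recomputed gene differences, 2 of those at least 2-fold apart changed sign and 52 of them fell under 2-fold. Sign changes of gene differences under 2-fold were not counted. Of 280 recomputed list medians 18 changed sign. Signal over background is unknown, and 1 array for each sample limits all values.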

Other observations

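Over all genes 3.17% were at least 2-fold higher in VA_475 and 4.04% lower. Of 34 measured proteasome genes 0 were at least 2-fold apart, with a median difference of 0.14. VA_475 was the highest of the 11 arrays for 11 of them, against 10.6% of all genes. Of 54 genes of oxidative phosphorylation 2 were higher and 0 lower, with a median of 0.10. The higher genes were Sdhb (1.36), the iron-sulfur subunit of succinate dehydrogenase, and Uqcrh (1.09), of respiratory complex III, while Sdha, the partner of Sdhb, differed by -0.96 with probes at -0.99 and -0.94. Of 53 splicing factors and hnRNPs 1 was higher, Hnrnpa0, and the median was 0.01. Of 50 translation factors and tRNA synthetases 2 were higher, Eif2b2 (1.28) and Yars (1.08), and 2 lower, with a median of -0.07.

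Chaperones had 1 of 44 genes higher and 3 lower. Hspb1, a small heat shock protein, stood at -5.82 on VA_475 and -3.96 on 3T3, below the -5.03 to 0.06 of the other arrays on VA_475. Dnajc3, which checks the stress response of the endoplasmic reticulum, differed by -1.26, with 3 probes from -1.35 to -1.16. Hsph1 was the higher gene (1.01). Lysosomal genes had 3 of 37 genes higher and 2 lower, with a median of -0.02. Gla, alpha-galactosidase, stood at 1.98 on VA_475 and 0.01 on 3T3, and Manba, beta-mannosidase, at -2.21 and -0.46, below the -0.26 to 1.87 of the others on both arrays. Pex3, a factor of peroxisome assembly, was at 0.00 on VA_475 and -1.37 on 3T3, with 3T3 below the others (-0.74 to 0.38).

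Probes without a gene name were compared in the same way. Of 5608 with a value on both arrays, 152 were at least 2-fold higher in VA_475 and 144 lower, against 453 and 570 of all 15143 probes.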
